A study of Arabidopsis thaliana with 48 samples.

Results

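The miRNAs described here are the late-annotated Arabidopsis thaliana miRNAs, taken as all names in the 21 nt tables with a family number of 1000 or higher, whatever the suffix. miR1886.1, miR4221, miR5017-5p and miR5024-3p were left out of the 152 names that met this rule, which left 148 members of 428 annotated names. Small RNA came from closed buds of soil-grown plants of 3 genotypes: Col0 wild type and the mutants atprmt5-2 and atprmt5-6, which carry different mutant alleles of the arginine methyltransferase gene AtPRMT5. For each genotype, 2 libraries were made from total extracts (total small RNA) and 2 from anti-AGO1 immunoprecipitates (AGO1-IP), described as biological duplicates, so that the study asked what the mutations do to small RNA levels and to their loading into AGO1. No treatment was given, and nothing further on the alleles is in the sources used here.

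In plants, DCL1 cuts a miRNA duplex from a hairpin precursor, and one strand is loaded into an Argonaute protein while the other is usually degraded. AGO1, the main slicer of plant miRNA pathways, prefers a 5′ uracil, whereas AGO2 and AGO4 prefer a 5′ adenine and AGO5 a 5′ cytosine. Families are numbered in the order of their description, so high numbers mark families found late, mostly by deep sequencing; many are species-specific, weakly expressed and of disputed status. PRMT5 places symmetric methyl marks on arginines of many proteins.

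Of the 148 members, 147 were matched to RefSeq (TAIR10.1) and held 126 distinct sequences, because several families have identical copies in the genome. miR10515 was not matched. The sequences below are those of the 10 members abundant enough to be tested, which range from U-starting to A-starting and from 21 to 24 nt. The seed, bases 2 to 8, is in capitals.
miR1886.2: uGAGAUGAaaucuuugauugg
miR2934-5p: uCUUUCUGcaaacgccuugga
miR5012: uUUUACUGcuacuuguguucc
miR5651: uUGUGCGGuucaaauaguaac
miR5640: uGAGAGAAggaauuagauuca
miR1888a: uAAGUUAAgauuugugaagaa
miR8183: uUUAGUUGacggaauuguggc
miR5637: aAUGCGCAacucuauauuucc
miR8166: aGAGAGUGuagaaaguuucuca
miR5653: uGGGUUGAguugaguugaguuggc

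None of these 10 shared a seed with another of the 10. miR1886.2 shared its seed with miR774b-5p, miR5640 with miR1886.1 and miR5653 with miR398b-5p and miR398c-5p. miR5653, annotated at 24 nt, held the word UUGAG 3 times. miR1886.2 lies at chr2:15611882-15611902 on the plus strand, within an annotated exon of the protein-coding gene AT2G37160 on the same strand. miR5637 lies at chr2:12270341-12270361 on the minus strand, in an intron of AT2G28620 and on that gene's strand. miR8183 lies at chr3:11747799-11747819 on the minus strand, in an exon of the transcribed pseudogene AT3G30110. miR5640 lies at chr1:1653539-1653559 on the minus strand, in an intron of CALS1, which encodes a callose synthase. miR5012 (chr2:8432747-8432767, plus strand), miR8166 (chr1:4525316-4525337, minus strand) and miR5653 (chr1:19026915-19026938, minus strand) overlapped no other annotated gene.

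The next sequences are shown because they were nearly confined to one fraction or because their arms can be set against each other. miR5643a and miR5643b have the same sequence. miR5663-5p and miR5663-3p are exact reverse complements, so counting that ignored strand could not tell their reads apart; whether strand was used is not given in the sources used here.
miR3440b-5p: uUUUCUUGgcccauccacuuc
miR5643a and miR5643b: aGGCUUUUaagaucugguugc
miR5645c: aACCUAUUuaacgacaugacu
miR5029: aAUGAGAGagaacacugcaaa
miR5663-5p: aGCUAAGGauuugcauucuca
miR5663-3p: uGAGAAUGcaaauccuuagcu

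Most members were rare or unseen in buds. With 21 nt reads, 94 of the 148 members were listed in at least 1 library, against 124 of 144 names of conserved families and 94 of 132 other names numbered under 1000. A further 3 members were listed only with longer reads, and 51 were listed at no length. A member that was not listed had 0 reads in a library, which allows up to 3 reads. That is 0.367 to 5.25 RPM depending on the library, where RPM is the read number scaled to all reads of that length. No such limit holds for members annotated at 19 or 20 nt. With 21 nt reads, names of 20 nt were listed for 0 of 17 conserved names and 1 of 5 others under 1000. Among names of 21 nt, 78 of 108 members, 113 of 114 conserved names and 72 of 99 others were listed. Between 35 and 54 members were listed per library, 15 were listed in all 12 libraries, and 12 in a single library. Some members were listed in 1 fraction: 18 in the total fraction alone, on 1 to 48 reads, and 17 in AGO1-IP alone, on 1 to 9 reads. AGO1-IP was sequenced to 39435852 reads of 21 nt against 6942398 in the total fraction. At equal RPM a few AGO1-IP reads can thus go with 0 total reads. The share over all miRNAs was not counted, so both counts are descriptions only. miR5643b and miR5029, with 48 and 34 reads, were listed in all 6 total libraries and in no AGO1-IP library. Only 43 members reached 10 reads over the 12 libraries.

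Listing followed the annotated length. None of the 17 members annotated at 19 or 20 nt was listed in any table, whereas 78 of 108 annotated at 21 nt and 13 of 16 annotated at 22 nt were listed with 21 nt reads. The tables thus held no reads longer than a member's annotated length for members of 21 nt. Among the 64 members that start with U, 42 were listed with 21 nt reads, and among the 63 that start with A, also 42.

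**Figure D1:**
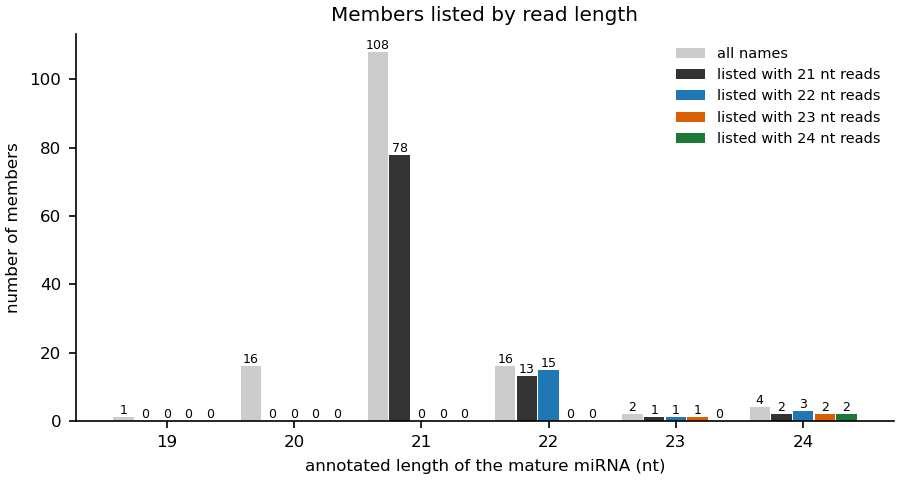
Number of members (y axis) by annotated mature length in nt (x axis), with all names in grey and those listed in at least 1 library with reads of 21, 22, 23 and 24 nt in colours. None of the 17 members of 19 or 20 nt was listed, and 78 of 108 members of 21 nt were.

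The members contributed little to the miRNA pool, and a single miRNA made up much of what they did contribute. Together they took 0.126% to 0.201% of the miRNA reads of 21 nt in the total fraction and 0.0557% to 0.0723% in AGO1-IP. The highest of these shares, in wild-type total replicate 1, had a 95% Wilson interval of 0.179% to 0.226%, and the lowest, in wild-type AGO1-IP replicate 1, one of 0.0537% to 0.0578%. Libraries held 571191 to 1397552 reads of 21 nt in the total fraction and 3750509 to 8166912 in AGO1-IP, so 1 read was worth 0.716 to 1.75 RPM in the former and 0.122 to 0.267 RPM in the latter. Over members that were listed, the median of the mean RPM was 0.271, against 18.0 in the conserved families and 1.85 in the other names under 1000. Intervals and limits on 0 reads cover counting error only. A fold or ratio set against such a limit takes the reads on the other side as counted, without their own error.

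miR1886.2 was the most abundant member and held 31.5% to 71.1% of the members' reads in a library. Its level in the total fraction was 252 and 129 RPM in wild type, 266 and 190 RPM in atprmt5-2, and 227 and 115 RPM in atprmt5-6. In AGO1-IP it stood at 238 and 351 RPM, 320 and 288 RPM, and 310 and 334 RPM in the same order. The genotypes overlapped in both fractions, and no difference between them was called. miR2934-5p came next, with 77.03 and 94.07 RPM in the wild-type total fraction, 36.4 and 29.9 RPM in atprmt5-2 and 40.1 and 39.5 RPM in atprmt5-6. Both wild-type values lay above all 4 mutant values, but neither mutant passed the test (limma, adjusted p = 0.0761 and 0.103). In AGO1-IP the genotypes overlapped, between 22.1 and 76.2 RPM.

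The other tested members lay between 5.08 and 22.1 RPM on average over the 12 libraries. The filter for testing was a mean of 5 RPM, and 4 of the 10 passed it through one side of a comparison: miR5637 through the mutants, miR8183 through wild type, and miR5653 and miR8166 through the total fraction. Counts of called members that include these 4, and p-values of these 4 in those comparisons, are descriptions only. miR5012 held 11.6 to 14.3 RPM in the 6 total libraries, the narrowest spread of the 10 tested members in that fraction. miR5651 ran from 7.92 to 21.2 RPM there and miR5640 from 3.50 to 11.9 RPM. miR1888a was at 8.75 and 4.55 RPM in the wild-type total fraction, 9.50 and 7.26 RPM in atprmt5-2 and 4.29 and 1.55 RPM in atprmt5-6. The lowest of these, atprmt5-6 replicate 2, rested on 2 reads. miR1888a was not called in atprmt5-6 with all libraries (limma, log2 difference -1.002, adjusted p = 0.0787), and was called lower without atprmt5-6 total replicate 1 (-1.53, adjusted p = 0.0366).

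**Figure D2:**
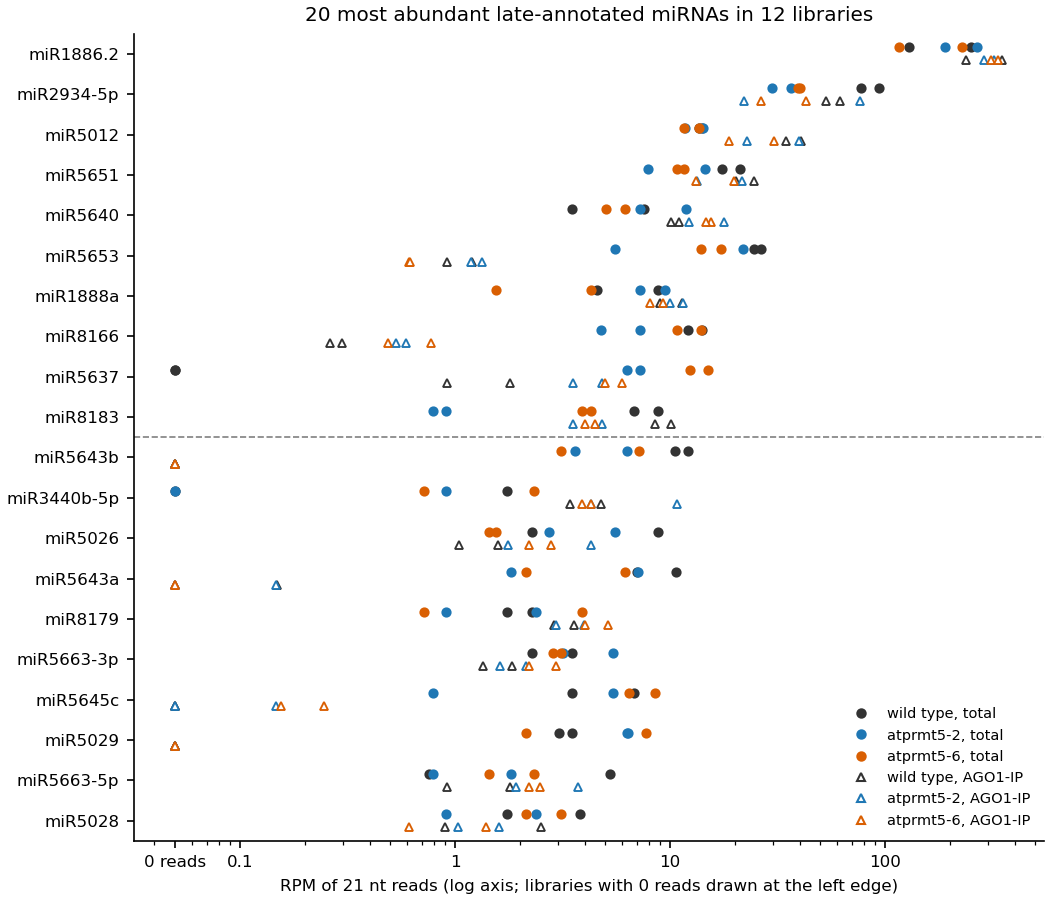
RPM of 21 nt reads (x axis, log scale) for the 20 most abundant members (y axis) in each of the 12 libraries, with filled circles for total small RNA, open triangles for AGO1-IP and colours for genotype. The dashed line separates the 10 tested members from the next 10; miR5653, miR8166, miR5643a, miR5643b, miR5645c and miR5029 lie further right in the total fraction than in AGO1-IP, and miR5637 has 0 reads in the wild-type total fraction.

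The first comparison asked how the mutations change miRNA levels in the total fraction. Of the 10 tested members, miR5637 rose in both alleles and miR8183 fell in atprmt5-2. Wild-type libraries of the total fraction held 0 and 0 reads of miR5637, against 8 and 8 reads (6.34 and 7.26 RPM) in atprmt5-2 and 21 and 16 reads (15.03 and 12.40 RPM) in atprmt5-6. The 4 mutant libraries stood apart from both wild-type libraries. Against a limit of 3 reads over the pooled wild-type libraries, miR5637 was at least 4.26-fold higher in atprmt5-2 and at least 8.67-fold higher in atprmt5-6. These folds take the mutant reads as counted, without their own error. miR8183 held 8.75 and 6.83 RPM in wild type, 0.792 and 0.907 RPM in atprmt5-2 and 4.29 and 3.88 RPM in atprmt5-6, with no overlap between any of the 3 genotypes. These are few reads: 5 and 9 in wild type, 1 and 1 in atprmt5-2, 6 and 5 in atprmt5-6.

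In limma on log2(RPM + 1), which understates the change of low miRNAs, miR5637 alone of 10 members was called higher and miR8183 alone lower in atprmt5-2, where 3.12% of all 128 tested miRNAs were called higher and 12.5% lower. In atprmt5-6, 1 of 10 members was higher and 0 were lower, against 3.91% and 16.4% of all tested. Before adjustment, 5 of 10 members differed at p under 0.05 in atprmt5-2 and 4 in atprmt5-6, against 33.6% and 46.9% of all tested. Without the filter on low values, 2 of 94 members were called higher and 4 lower in each allele, against 2.85% and 7.28% of all 316 listed miRNAs in atprmt5-2 and 2.53% and 8.54% in atprmt5-6. edgeR called the same 2 members in atprmt5-2 and miR5637 alone in atprmt5-6, under both the authors' denominators and TMM scaling. The median log2 difference over the 10 members was -0.44 in atprmt5-2 and -0.42 in atprmt5-6, beside -0.44 and -0.67 over all tested miRNAs. miR5637 passed the filter through the mutants and miR8183 through wild type, so their p-values that follow are descriptions only. For miR5637 the log2 difference was 2.96 in atprmt5-2 and 3.87 in atprmt5-6, each with an SE of 0.32, which is 3.40 and 4.55 above the median miRNA (limma, adjusted p = 0.000374 and 3.07e-05). miR8183 changed by -2.24 in atprmt5-2 (SE 0.29, adjusted p = 0.00107), or -1.80 relative to the median. DESeq2 did not call that fall (adjusted p = 0.176), and adjusted p-values ran from 0.000324 to 0.176 over 14 alternatives.

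miR8183 did not pass in atprmt5-6 (limma, log2 difference -0.78, adjusted p = 0.0645), and over 14 alternatives its value there ran from -0.95 to 0.01. Of these alternatives 3 called it lower, among them limma on summed identical sequences (-0.78, adjusted p = 0.0424). The difference between the alleles was not called in the main fit (limma, 1.46, SE 0.29, adjusted p = 0.0693). Over 14 alternatives that adjusted p ran from 0.022 to 0.995, and 4 of them called it. miR8166 was at 14.0 and 12.1 RPM in the wild-type total fraction, 4.75 and 7.26 RPM in atprmt5-2 and 10.7 and 14.0 RPM in atprmt5-6. Its atprmt5-2 values lay below all others, at an adjusted p just over the threshold (log2 difference -1.03, SE 0.32, adjusted p = 0.0503, limma). Without atprmt5-2 total replicate 2, miR8166 and miR5653 were called lower too, making 4 calls in place of 2.

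**Figure D3:**
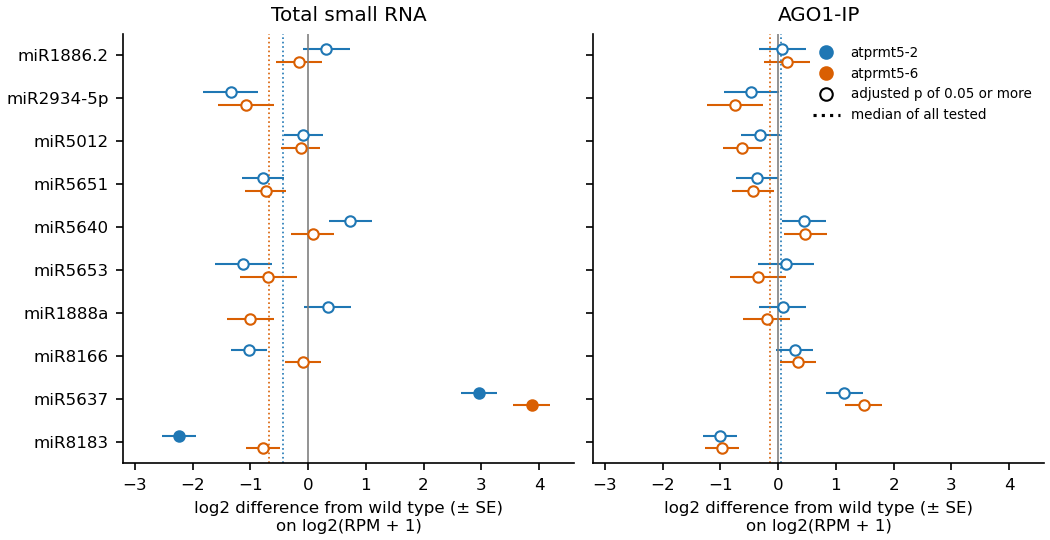
Log2 difference from wild type on log2(RPM + 1) with its SE (x axis) for the 10 tested members (y axis), in the total fraction (left) and AGO1-IP (right). Filled points have a limma adjusted p under 0.05 and dotted lines mark the median of all 128 tested miRNAs in each allele; miR5637 is filled in both alleles and miR8183 in atprmt5-2, in the total fraction only.

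Identical copies share their reads, which lowers each copy below the threshold for testing. miR5643a and miR5643b, summed, held 17.5 and 22.8 RPM in the wild-type total fraction, 13.5 and 5.44 RPM in atprmt5-2 and 9.30 and 9.30 RPM in atprmt5-6. Both wild-type values lay above the 4 mutant values. In a fit on summed identical sequences, with 11 member sequences among 98, this sequence was called lower in both alleles (limma, -1.12, adjusted p = 0.0434, and -1.03, adjusted p = 0.0478). In that fit 21.4% and 30.6% of all sequences were called lower, and 3 and 2 of the 11 member sequences were. The summed sequence passed the filter through the wild-type total libraries, so its p-values here and these counts of member sequences are descriptions only.

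The summed level of all members in the total fraction was 507.7 and 409.7 RPM in wild type, 416.5 and 356.5 RPM in atprmt5-2 and 399.99 and 296.9 RPM in atprmt5-6, so that wild type overlapped atprmt5-2. Without miR1886.2, left out here after its values were seen, the summed level of all other members in the total fraction was 256 and 281 RPM in wild type, 150.5 and 166.9 RPM in atprmt5-2 and 173 and 181 RPM in atprmt5-6. In that sum wild type was higher than every mutant library, with no test made over the members. miR2934-5p alone held 77.03 and 94.07 RPM of it in wild type and 29.9 to 40.1 RPM in the mutants. The median log2 difference of all tested miRNAs in this fraction was -0.44 in atprmt5-2 and -0.67 in atprmt5-6, so a fall was not particular to the members. In AGO1-IP the sum without miR1886.2 ran from 126 to 218 RPM and the genotypes overlapped. miR845a, a miRNA of pollen, moved the same way in the total fraction, at 73.5 to 78.1 RPM in wild type, 37.2 to 38.1 RPM in atprmt5-2 and 30.2 to 40.8 RPM in atprmt5-6. The second pollen miRNA, miR845b, stood at 5.25 to 7.59 RPM, 3.63 to 4.75 RPM and 3.10 to 3.58 RPM. Both miRNAs of this list thus stood below wild type in all 4 mutant libraries of that fraction, and their part in the results was not tested. In such bulk samples fewer cells of a type and less RNA per cell cannot be told apart.

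The second comparison asked how the mutations change AGO1-bound miRNAs. limma called no member in either allele, where 2.34% of all tested were called higher and 1.56% lower in atprmt5-2. In atprmt5-6 the shares were 0.781% and 0%. Before adjustment, miR5637 and miR8183 differed at p under 0.05 in each allele, against 15.6% and 18.0% of all tested. edgeR with the authors' denominators called both of them in both alleles, edgeR with TMM called miR5637 in atprmt5-6 alone, and DESeq2 called neither. With the replicate number as a block within fraction, limma called miR5637 in both alleles (1.15, adjusted p = 0.0358, and 1.48, adjusted p = 0.0205). miR5637 held 1.79 and 0.921 RPM in wild-type AGO1-IP, 4.80 and 3.54 RPM in atprmt5-2 and 6.00 and 4.96 RPM in atprmt5-6. All 4 mutant values exceeded the wild-type values (limma, 1.15, adjusted p = 0.0859, and 1.48, adjusted p = 0.0531). miR8183 held 8.51 and 10.14 RPM in wild type, 4.80 and 3.54 RPM in atprmt5-2 and 4.04 and 4.50 RPM in atprmt5-6. All 4 mutant values lay below wild type (limma, -1.004, adjusted p = 0.0909, and -0.97, adjusted p = 0.112). The other 8 tested members had log2 differences between -0.75 and 0.47.

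Loading into AGO1, taken within a genotype as AGO1-IP minus total on the log2 scale, ran from -3.69 to 1.47 over the 10 tested members. miR5653 and miR8166 were lower in AGO1-IP in all 3 genotypes. miR5653 held 24.5 and 26.6 RPM in the wild-type total fraction, 5.54 and 21.8 RPM in atprmt5-2 and 17.2 and 14.0 RPM in atprmt5-6. In AGO1-IP it held 1.19 and 0.921 RPM, 1.33 and 1.18 RPM, and 0.612 and 0.620 RPM. miR8166 held 4.75 to 14.0 RPM over the total libraries and 0.263 to 0.775 RPM over the AGO1-IP libraries. Neither overlapped between the fractions. Both passed the filter through the total fraction, so their p-values for loading are descriptions only. The loading of miR5653 was -3.69, -2.44 and -3.35 in wild type, atprmt5-2 and atprmt5-6 (limma, SE 0.49; adjusted p = 8.03e-05, 0.00155 and 0.000207). That of miR8166 was -3.45, -2.14 and -3.03 (SE 0.32; adjusted p = 4.81e-06, 0.000245 and 1.96e-05). Both were called under all 13 alternatives in each genotype.

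Apart from that of miR5637 in wild type, the calls for higher loading were lost when RPM were scaled to miRNA reads. miR5012 held 34.6 and 40.4 RPM in wild-type AGO1-IP, 22.7 and 39.7 RPM in atprmt5-2 and 18.7 and 30.6 RPM in atprmt5-6, all above its highest total value of 14.3 RPM. Its loading was 1.37, 1.15 and 0.88 (limma, adjusted p = 0.00682, 0.0132 and 0.0439), or 1.14, 0.53 and 0.19 above the median miRNA, and turned to -0.088, -0.16 and -0.47 when RPM were scaled to miRNA reads. That scaling moved the median of all tested miRNAs by -1.50, -1.25 and -1.34 in the 3 genotypes. The call for miR5012 was lost without wild-type AGO1-IP replicate 3 in wild type. In atprmt5-2 it was lost without total replicate 2 or AGO1-IP replicate 3, and in atprmt5-6 without either total library or AGO1-IP replicate 3.

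In atprmt5-2, miR8183 was also called higher in AGO1-IP (limma, 1.47, adjusted p = 0.00153), from 1 read in each total library. In atprmt5-6, miR1888a (1.40) and miR5640 (1.29) were called higher, both at a limma adjusted p = 0.0142. miR5640 held 5.01 and 6.20 RPM in atprmt5-6 total small RNA and 15.4 and 14.7 RPM in AGO1-IP, yet scaled to miRNA reads its loading was 0.018. miR1888a then stood at 0.30 and miR8183 at 0.73, and these 3 calls were lost. The miR1888a call was lost without atprmt5-6 total replicate 2 or AGO1-IP replicate 3, and the miR5640 call without total replicate 1 or either AGO1-IP library.

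Altogether 2 of 10 members were called higher and 2 lower in wild type, where 20.3% of all tested were called higher and 20.3% lower. In atprmt5-2 the counts were 2 and 2, against 36.7% and 18.8%, and in atprmt5-6 they were 3 and 3, against 40.6% and 19.5%. Without atprmt5-6 AGO1-IP replicate 3, 2 members were called in place of 6. Without the filter on low values, 14 of 94 members were called in each genotype, in either direction, against 22.8%, 30.1% and 28.2% of all 316. The median loading of the 10 members was 0.41, 0.38 and 0.28 in the 3 genotypes, beside 0.23, 0.62 and 0.69 over all tested. The second higher call in wild type was miR5637 (limma, 1.21, adjusted p = 0.00981), with 0 reads in the total fraction and 12 and 7 reads in AGO1-IP. Against the limit of 3 reads over both total libraries, its AGO1-IP to total ratio was at least 0.837, so enrichment in AGO1-IP was not shown. Of 13 alternatives 9 called it, and it was lost with both edgeR fits, with DESeq2 and without wild-type AGO1-IP replicate 1.

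In the mutants miR5637 had reads in both fractions, and it was lower in AGO1-IP in atprmt5-6. Its pooled ratio was 0.590 in atprmt5-2, from 16 reads in the total fraction and 42 in AGO1-IP, and 0.403 in atprmt5-6, from 37 and 81 reads. Its loading was -0.60 in atprmt5-2 (limma, adjusted p = 0.136) and -1.18 in atprmt5-6 (adjusted p = 0.00988). miR5637 passed the filter through the atprmt5-6 total libraries, where it was highest. Its p-values and calls for loading in the mutants are thus descriptions only. The atprmt5-6 call held under 11 of 13 alternatives, among them scaling to miRNA reads (-2.59), and was lost without total replicate 1 or AGO1-IP replicate 3.

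The third comparison asked whether loading differed between mutant and wild type. No member and no other miRNA was called in atprmt5-2 by limma, with 3 of 10 members at p under 0.05 before adjustment against 14.1% of all tested, and neither edgeR nor DESeq2 called a member. Without atprmt5-2 total replicate 2, miR5653 alone was called among the members (limma, 2.15, adjusted p = 0.0311). In atprmt5-6, 1 of 10 members was called lower, miR5637, which was the only one of 128 tested, or 0.781%. Its loading difference was -2.39 (SE 0.45, adjusted p = 0.042, limma). miR5637 passed the filter through the mutants, so this p-value is a description only. The call rests on the wild-type total libraries with 0 reads, and against the limit of 3 reads the wild-type ratio was at least 2.08-fold that of atprmt5-6. It was lost when any one of the 8 libraries was left out. miR8183 stood at 1.24 and -0.18 and miR8166 at 1.31 and 0.43 in atprmt5-2 and atprmt5-6, with no call. Between the alleles, no member was called in the total fraction or in AGO1-IP by limma, edgeR or DESeq2, with 4 and 0 members at p under 0.05 before adjustment, against 5.47% and 0.781% of all tested.

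Across the 43 members with at least 10 reads, the ratio of AGO1-IP to total RPM is given by first base, as a description. The 23 that start with U had a median ratio of 1.58, near the 1.72 of all 149 U-starting miRNAs with as many reads. The 16 that start with A had a median ratio of 0.341, beside 0.223 for all 38 such miRNAs. These ratios pool 6 libraries per fraction, and identical copies among them are not independent. With miRNA reads as the denominator, an alternative chosen after seeing the data, the medians were 0.597 and 0.128. Not counting miR1886.2, U-starting members made up 57.3% to 71.4% of the members' reads in the total libraries and 83.2% to 93.9% in the AGO1-IP libraries. The highest total share had a 95% Wilson interval of 66.5% to 75.7% and the lowest AGO1-IP share one of 79.6% to 86.2%.

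With all 6 libraries of each fraction set against each other, 2 of the 43 members lay higher in AGO1-IP without overlap and 7 lay lower, beside 15.4% and 14.0% of 228 miRNAs. The 2 were miR5012 and miR3440b-5p, and with miRNA reads as the denominator 0 were higher and 12 lower, beside 1.32% and 27.6% of the 228. miR3440b-5p held 0 to 2.33 RPM in the total fraction, from 6 reads in all, and 3.42 to 10.8 RPM in AGO1-IP, from 207 reads. Its ratio of 6.07 (95% exact interval 2.74 to 16.7) was the largest among the 43 members, and it stayed above 1, at 2.29, on miRNA reads. The other arm of its precursor, miR3440b-3p, had 0 reads in the total fraction and 1 in AGO1-IP.

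The 7 lower members were miR5653, miR8166, miR5643a, miR5643b, miR5645c, miR5029 and miR5995b, all but miR5653 with a 5′ A. Of these, miR5643a, miR5643b, miR5645c, miR5029 and miR5995b reached the 10 reads through the total fraction alone, and miR3440b-5p above reached them through AGO1-IP, so the counts of 7 and 2 are descriptions. miR5643a and miR5643b together had 88 reads in the total fraction and 2 in AGO1-IP, although AGO1-IP was sequenced to 39435852 reads of 21 nt against 6942398. In the fit on summed identical sequences their loading was -4.29, -3.17 and -3.36 (limma, adjusted p = 3.01e-06, 2.87e-05 and 2e-05). Summed, they held 5.44 to 22.8 RPM in the total fraction and at most 0.149 RPM in AGO1-IP. They thus passed the filter through the total fraction, and these p-values are descriptions only. miR5029, which shares its seed with miR400, had 34 reads in the total fraction and 0 in AGO1-IP, and was at least 64.4-fold lower against a limit of 3 reads over the fraction. It was listed in all 6 total libraries, at 2.15 to 7.75 RPM. miR5645c had 38 reads in the total fraction and 4 in AGO1-IP, a ratio of 0.0185 (95% exact interval 0.0048 to 0.0515). miR5995b, whose sequence is also listed as miR5595a, had 10 reads and 0.

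Of the 16 A-starting members, 4 had a ratio over 1 and 10 overlapped between the fractions, against 11 and 23 of all 38 A-starting miRNAs. On miRNA reads, 1 of the 16 had a ratio over 1. miR5026 ran from 1.43 to 8.75 RPM in the total fraction and from 1.05 to 4.27 RPM in AGO1-IP, with overlap and a ratio of 0.664 (95% exact interval 0.411 to 1.12). miR5663-5p had a ratio of 1.17 (0.636 to 2.37), and its partner miR5663-3p, which starts with U, one of 0.605 (0.376 to 1.01). As reverse complements, the reads of these arms may not have been told apart, so their ratios cannot be set against each other. miR5028 had a ratio of 0.538 and held 0.612 to 2.50 RPM in AGO1-IP. On miRNA reads its ratio was 0.203, and miR5028 lay lower in AGO1-IP without overlap. miR8179, a U-starting miRNA in an intron of CCS52A2, which encodes an activator of the anaphase-promoting complex, held 0.716 to 3.88 RPM in the total fraction and 2.90 to 5.14 RPM in AGO1-IP, a ratio of 1.91 (1.10 to 3.58).

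**Figure D4:**
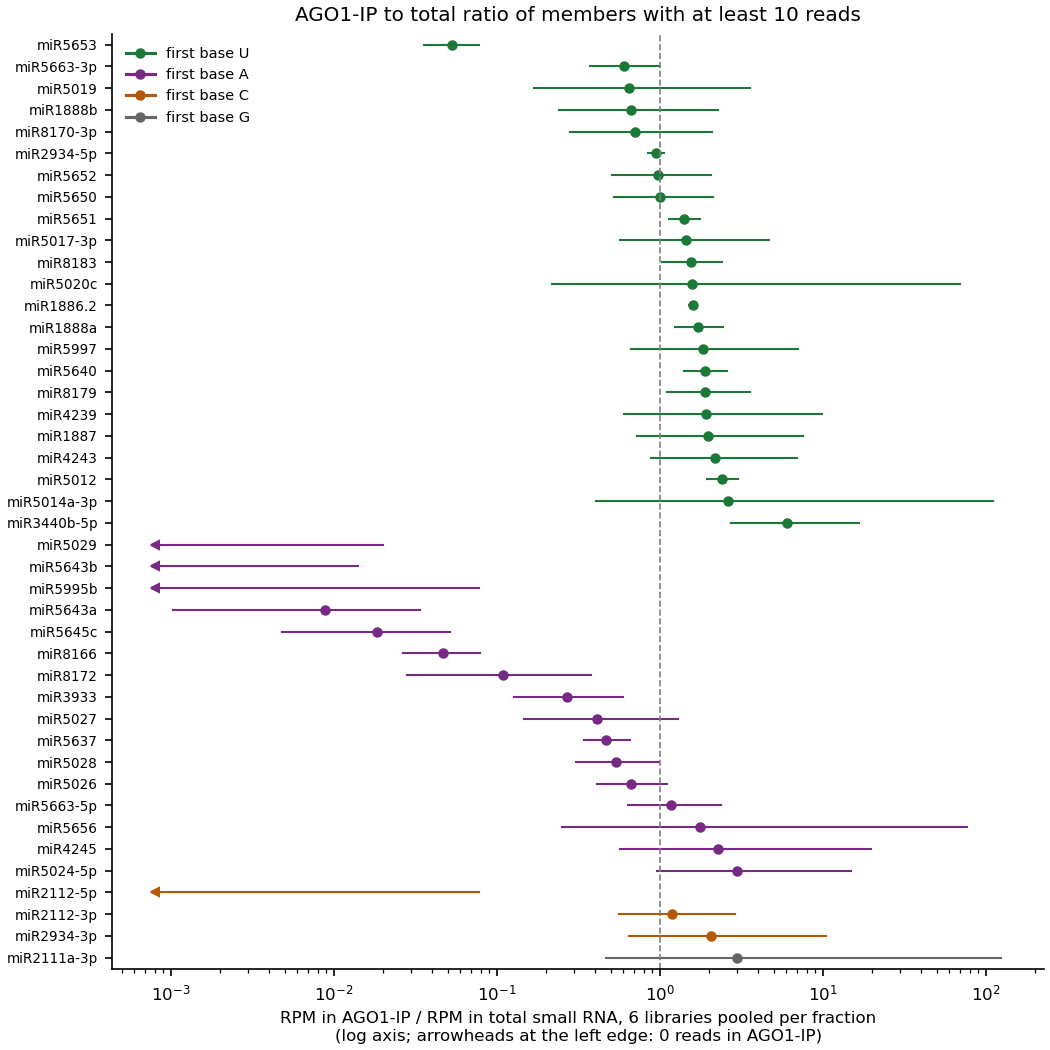
Ratio of RPM in AGO1-IP to RPM in the total fraction, with 6 libraries pooled per fraction (x axis, log scale), for the 43 members with at least 10 reads (y axis), coloured by first base. Bars are 95% exact intervals for counting error and arrowheads mark 0 reads in AGO1-IP; the U-starting members cluster around their median of 1.58 apart from miR5653, and the A-starting members spread from 0 to 2.99.

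Both arms are annotated for some precursors, and in miR2934 most reads fell on one arm. miR2934-5p had 354 reads in the total fraction and 1915 in AGO1-IP, and its partner miR2934-3p had 3 and 35. In miR2112, the 5p arm had 10 reads in the total fraction and 0 in AGO1-IP, and the 3p arm had 8 and 54. The 3p arm ran from 0 to 2.86 RPM in the total fraction and from 0.658 to 2.21 RPM in AGO1-IP, with overlap. Both of its arms start with C. The miR2111 family, whose members respond to phosphate starvation, was near the limit of detection, with miR2111a-3p at 1 and 17 reads and the identical miR2111a-5p and miR2111b-5p at 1 and 5 reads together.

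Longer reads added few members. Each read length has its own denominator, so RPM are compared only within a length. miR5653 was listed with 22, 23 and 24 nt reads as well: at 22 nt it held 8.04 to 25.3 RPM in the 6 total libraries and at most 3.54 RPM in AGO1-IP. At 23 nt it held 17.4 to 37.2 RPM in 5 total libraries and 1.76 to 6.90 RPM in AGO1-IP. Its lower level in AGO1-IP was thus seen at 3 read lengths, without a test. miR8166 was listed with 22 nt reads in 5 of 6 total libraries, at 2.01 to 11.1 RPM, and in no AGO1-IP library. miR8182, a U-starting miRNA of 22 nt, was listed with 22 nt reads in all 6 AGO1-IP libraries, at 1.33 to 3.69 RPM. It was listed in no total library. The lowest values listed for members were 1.86 and 0.904 RPM in the wild-type total libraries and 0.976 and 1.00 RPM in those of atprmt5-6. A level like that in AGO1-IP could thus go unlisted in any one of these libraries. The 6 total libraries were not pooled at 22 nt, so enrichment of miR8182 in AGO1-IP was not tested. miR5629, also U-starting and 22 nt long, held 2.21 to 5.68 RPM in AGO1-IP and was listed in 3 total libraries at 0.904 to 2.30 RPM. The A-starting miR8121, annotated at 24 nt, was listed with 24 nt reads in 5 total libraries, at 0.204 to 1.38 RPM, and in no AGO1-IP library.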

How the data were processed

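The authors deposited, for each of 12 libraries, 4 tables of RPM values of miRNAs, for reads of 21, 22, 23 and 24 nt, per the file headers (48 tables). TAIR10, Trimmomatic 0.36, Bowtie2 and SAMtools 1.9 were used, per the submitters' processing notes; the sources used here do not give their roles. In the 21 nt tables each value was a whole multiple of the smallest, within 0.01 reads, so read numbers were recovered and a missing value was taken as 0 reads. A 23 nt table, that of wild-type total replicate 1, repeated the read numbers of the 21 nt table and was not used.

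The main test was limma 3.58.1 (R 4.3.3) with a trend on log2(RPM + 1) in the 21 nt tables. The fit held the 128 miRNAs whose RPM averaged 5 or more, 6 groups, 6 residual degrees of freedom and Benjamini-Hochberg adjusted p under 0.05 over all 128. Recovered reads went to edgeR 4.0.16 and DESeq2 1.42.0 as alternatives. Other alternatives were a pseudocount of 0.5, no filter, scaling to miRNA reads, centring on the median miRNA, summing identical sequences, separate fits, a replicate block and leaving out each library. The limma and edgeR fits were run on simulated data for atprmt5-2 against wild type in the total fraction. The outcome is not given here. Pooling the spread assumes that both fractions vary alike, and the p-values measure the spread between 2 libraries per group. The labels do not say whether total and AGO1-IP libraries share extracts.

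Coordinates and mature sequences came from RefSeq TAIR10.1. The miRNAs named were mostly drawn from those past the filter, the next 10, those called in the fit without the filter, those with most 22 or 24 nt reads and miR2111. Some of those called without the filter, miR1886.3 among them, or with most 22 nt reads are not named with values. The members and lists were chosen with earlier results of these data known.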

Additional observations from a re-analysis of the deposited data

Results flagged for a closer look

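The loading of miR5637 differed between atprmt5-6 and wild type (limma, -2.39, adjusted p = 0.042), a difference between 2 groups under the same contrast. Wild type had 0 reads in the total fraction and 19 in AGO1-IP, and atprmt5-6 had 37 and 81. miR5637 passed the filter through the mutants, so the p-values for this difference are descriptions only. Adjusted p-values ran from 0.0038 to 0.424 over 18 alternatives, of which 6 called it.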

How the results depend on the processing

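The counts here are of members called per comparison, and 71 of 107 counts under alternatives, left-out libraries not counted, stayed within 1.5 times the main count. In the total fraction, atprmt5-2 had 2 calls, 6 without the filter, 1 with DESeq2 and 4 with identical sequences summed. atprmt5-6 had 1 call there, 6 without the filter, 3 scaled to miRNA reads and 3 with identical sequences summed. In AGO1-IP, atprmt5-2 had 0 calls, 2 with edgeR on the authors' denominators and 2 with identical sequences summed. atprmt5-6 had 0 calls, 1 centred on the median miRNA, 2 with edgeR on the authors' denominators, 1 with TMM and 1 with identical sequences summed. Loading calls in wild type, atprmt5-2 and atprmt5-6 numbered 4, 4 and 6, and 14, 14 and 14 of 94 without the filter. With DESeq2 they numbered 2, 2 and 3; with edgeR and TMM 2 in wild type and 3 in atprmt5-6; centred on the median miRNA 8 in wild type; and 2 in a fit of the atprmt5-2 libraries alone. The loading difference had 2 calls in atprmt5-2 scaled to miRNA reads, and 0 in atprmt5-6 without the filter, with both edgeR fits and with DESeq2. The allele difference in the total fraction had 1 call with a pseudocount of 0.5, without the filter, scaled to miRNA reads, centred and with sequences summed. Apart from fewer or more miRNAs being tested without the filter or with sequences summed, the cause was not tested. Shares of all tested miRNAs were counted only for the main fit, the fit without the filter and the fit on summed sequences. Counts of members under all other alternatives, left-out libraries and the replicate block among them, are thus descriptions only.

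A reversal was counted only where the main or the alternative value was called, and other changes of sign are not listed. Scaled to miRNA reads, loading reversed for miR5012 (-0.088, -0.16 and -0.47 in the 3 genotypes), for miR5651 in wild type (-1.29) and for miR8183 in wild type (-1.20) and atprmt5-6 (-1.22). On miRNA reads miR1886.2, the most abundant member, also lay lower in AGO1-IP without overlap, at a pooled ratio of 0.605. Leaving out 1 library gave 2 to 4 calls in atprmt5-2 and 1 to 2 in atprmt5-6 in the total fraction, 0 in AGO1-IP, 3 to 5 for loading in wild type and in atprmt5-2, 2 to 5 in atprmt5-6, and 0 to 1 and 0 for the loading differences. With the replicate number as a block within fraction, calls numbered 4 and 5 in the total fraction and 1 and 1 in AGO1-IP; the deviations of same-numbered libraries correlated at 0.226, 0.353 and 0.641 between genotypes in AGO1-IP, and at -0.104, -0.072 and 0.633 in the total fraction. With 2 numbers per fraction and no label on what a number marks, whether the numbers pair the libraries is not known. No paired analysis was possible because the fractions share only number 1 for loading within a genotype. Low depth limits the total fraction: 3 reads there equal 2.15 to 5.25 RPM, above the mean of most members.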

Other observations

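Without the filter on low values, limma tested 94 members. It called 18 that lay below the filter in at least 1 comparison, on 3 to 213 reads over the 12 libraries. The share of all 316 miRNAs under that rule was not counted, so the 18 are a description only. For loading, 14 of 94 members were called in each genotype, against 22.8%, 30.1% and 28.2% of all 316. miR3933, with a 5′ A, had 3 and 5 reads in the wild-type total fraction (5.25 and 3.79 RPM) and 1 or 2 reads in each mutant library (0.775 to 1.43 RPM), and was called lower in both alleles (-1.57, adjusted p = 0.0147, and -1.40, adjusted p = 0.0212). miR4243, which starts with U, had 1 and 3 reads in the wild-type total fraction and 0 and 0 reads in atprmt5-6 (-1.59, adjusted p = 0.0278), while it held 15 and 15 reads in wild-type AGO1-IP and 7 and 11 in atprmt5-6. The identical copies miR2933a and miR2933b were called in opposite directions in atprmt5-6 total small RNA (-1.14 and 1.05). Summed, their shared sequence had 1 and 1 reads in wild type and 2 and 1 reads in atprmt5-6.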
